A study of Mus musculus with 6 samples.

Results

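The 10 genes described here are a selection from the mammalian circadian clock and its nearest outputs: Per1, Per2, Per3, Cry1, Cry2, Clock, Nr1d1, Nr1d2, Dbp and Bhlhe40. Their rule uses names and no measured values, though the list was drawn up with earlier results of these data known: it takes probe sets whose platform annotation gives exactly 1 gene symbol. All 10 were found among 19938 genes tested, each on 1 probe set and with 0 further probe sets that share it with another gene. The arrays carry total RNA of dermal cells taken from newborn C57BL/6 mice and cultured for 2 days before collection. The 3 FR arrays come from cells given forskolin, an activator of adenylyl cyclase that raises cyclic AMP, together with RepSox, an inhibitor of the TGF-β type I receptor kinase, at 20 µM each. The 3 control arrays are titled DMSO, and the series design describes their medium as lacking the compounds. The labels give neither the number of mice nor whether cells were pooled, and do not say that arrays of a group stem from separate cultures. The p-values thus rest on the spread among these arrays alone, and that spread may be technical.

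The clock is a feedback loop of transcription that runs in nearly every cell, dermal fibroblasts included. CLOCK and its partner BMAL1, the product of Arntl, bind E-box sequences and switch on the Per and Cry genes, whose proteins return to the nucleus and inhibit them. A second loop is closed by the repressors REV-ERBα and REV-ERBβ, products of Nr1d1 and Nr1d2, which compete with ROR activators for the same sites. Cyclic AMP acting through CREB is a known resetting signal in cultured cells, and Per1 is its classical immediate target.

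Values are log2 RMA values, in which 1 unit is a 2-fold difference, and changes are taken as FR over DMSO, from the means of 3 arrays a group. A gene is said to have risen or fallen where limma's adjusted p, by the Benjamini-Hochberg method over all 19938 genes, was under 0.05. Of the 10 genes 9 changed by less than 0.4 on the log2 scale, and 1, Bhlhe40, by more than 1. Nr1d1, the next largest change after Bhlhe40, ranked 3573 by size among the 19938 genes. Most genes on the arrays thus also changed by less than Nr1d1, and small changes are not particular to the clock. Nr1d1 rose, and Per3, Nr1d2, Dbp and Bhlhe40 fell. That is 5 of 10, or 50%, against 27.9% of all genes called in either direction, 13.4% of them higher and 14.5% lower, and the groups did not overlap for 6 of the 10 against 43.9% of all genes. The median change of the 10 genes was -0.022, beside 0.053 for all genes. The count of 5 fell to 3 without DMSO replicate 1 or FR replicate 2, where 4190 and 4595 of all genes were called in place of 5559. It fell to 2 without DMSO replicate 2, DMSO replicate 3 or FR replicate 3, where 4033, 4188 and 4496 of all genes were called. These 2 of 10 are near the share of all genes called there. Without FR replicate 1 it was 4, with 5914 of all genes called. Quantile normalization and cyclic loess split the 5 calls as 2 higher and 3 lower in place of 1 and 4.

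**Figure D1:**
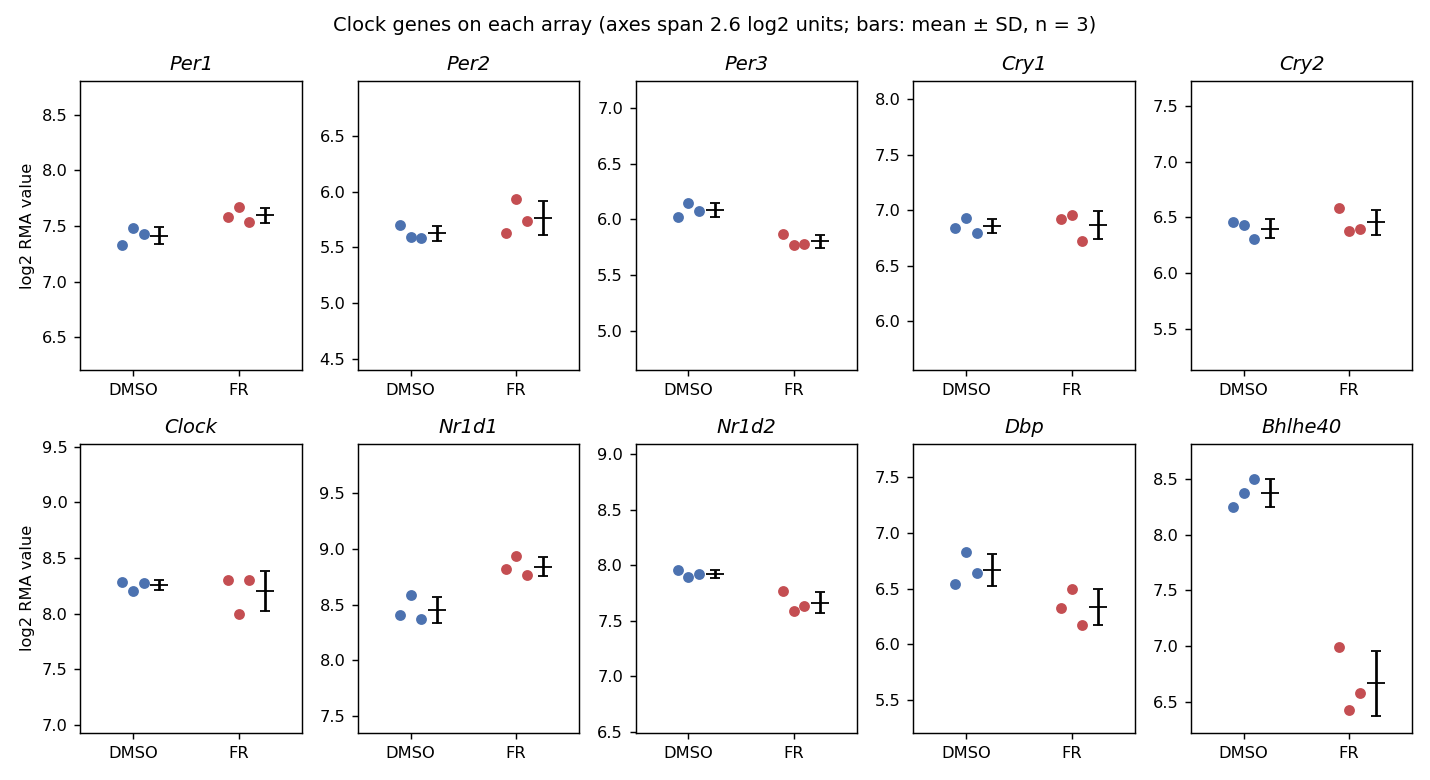
Log2 RMA value of each clock gene on each of the 3 DMSO (blue) and 3 FR (red) arrays, with the group mean and SD beside the points; all vertical axes span the same range. Bhlhe40 falls from a DMSO mean of 8.37 to an FR mean of 6.66, while the FR means of the other 9 genes stay within 0.4 of their DMSO means.

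Arrays were alike within groups, with correlations across genes of at least 0.9956 within DMSO and 0.9926 within FR, against at most 0.9776 between groups, and genes are not independent replicates. Of 10 dermal fibroblast markers 4 rose and 5 fell, with a summed level of 108.6 to 109.0 in DMSO against 107.8 to 108.4 in FR, and 0 of them were dim in both groups by a mark of dim signal, a level of 5.65 that is the 95th percentile of 1027 olfactory receptor genes in DMSO. Markers of other cell types moved with the treatment, and their part in the clock results was not tested. Keratinocyte markers rose in 12 of 15 cases, with a summed level from 90.4 to 91.9 in DMSO and from 106.6 to 108.3 in FR. Adipocyte markers rose in 8 of 10 cases (65.4 to 65.6 in DMSO, 79.6 to 80.6 in FR) and skeletal muscle markers in 9 of 11 (65.5 to 67.0 against 75.1 to 76.4). Smooth muscle and pericyte markers fell in 6 of 10 cases and rose in 2 (76.8 to 77.1 against 72.6 to 73.3). Of 7 immune markers 2 rose (35.2 to 36.1 against 36.1 to 37.1). Of 7 endothelial markers 2 rose and 1, Flt1, fell by 2.12 (37.5 to 38.1 against 37.0 to 37.4), while the list's median change was 0.077. Of 5 melanocyte and Schwann markers 2 rose and 1, Mitf, fell by 1.19 (29.6 to 30.1 against 29.2 to 29.9), with a median of 0.23. RMA values have no 0, but 5 of 7 endothelial and 5 of 7 immune markers lay under the dim level in both groups. The median change of the olfactory receptor genes was 0.14, beside 0.16 for the immune list. In such bulk samples, fewer cells of a type and less RNA per cell cannot be told apart. Clock transcripts also cycle over the day, and the labels give the day of collection but not the hour. A change of mean level, of phase, of amplitude and a difference in hour of collection thus cannot be told apart.

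Bhlhe40 encodes DEC1, a basic helix-loop-helix repressor that binds E-boxes and opposes CLOCK and BMAL1, and is also a known target of TGF-β. It read 8.25, 8.37 and 8.50 on the DMSO arrays and 6.99, 6.43 and 6.58 on the FR arrays (probe set 10540472). Every FR array was lower than every DMSO array, with 1.26 between the nearest. The fall of 1.71 on the log2 scale (SE 0.14, 95% interval -2.01 to -1.41) was 3.27-fold, with limma adjusted p = 5.63e-06, and ranked 137 by size among the 19938 genes. It passed under each of the 16 alternatives run, with log2 changes from -1.87 to -1.59.

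Bhlhe41, which encodes the closely related repressor DEC2 and is not one of the 10, fell alongside it. It read 5.76, 6.07 and 5.80 in DMSO and 4.60, 4.23 and 4.32 in FR, so that the FR values lay under the dim level of 5.65 and the size of the fall is uncertain there. The fall of 1.49 (SE 0.12, limma adjusted p = 5.26e-06) stood beside that of Bhlhe40 with a difference between the 2 changes of -0.21 (SE 0.13, exact permutation test over 6 arrays, two-sided p = 0.2). The smallest p this design allows is 0.1, so the test could not have passed, and the value rests on dim FR readings of Bhlhe41. Among 6 pairs of related genes compared in this way, no adjusted p was under 0.2, so such differences are given by size.

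The RefSeq promoter table (GRCm38.p6) has no entry used here for Bhlhe40, and the one for Bhlhe41 is shown because its gene product binds the same motif that the window contains. Promoters were read from 250 bases before to 50 bases after the annotated start, on both strands, and the 250 bases before the start are printed 5′ to 3′ with matches in capitals. The Bhlhe41 window has the E-box CACGTG 153 bases before the start, a motif found in 7.15% of the 32851 windows in the table. A match describes the letters only.
Bhlhe41, chr6:145865421-145865670, minus strand: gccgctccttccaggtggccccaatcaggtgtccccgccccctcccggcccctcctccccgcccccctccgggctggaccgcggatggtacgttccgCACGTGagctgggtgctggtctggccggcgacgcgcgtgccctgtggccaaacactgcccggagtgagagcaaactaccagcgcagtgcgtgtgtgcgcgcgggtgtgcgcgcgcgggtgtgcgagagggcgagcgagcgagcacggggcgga

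The REV-ERB genes went opposite ways. Nr1d1 (probe set 10390691) read 8.40, 8.59 and 8.37 in DMSO and 8.82, 8.93 and 8.76 in FR, with every FR array above every DMSO array. Its rise of 0.39 (SE 0.092, 95% interval 0.18 to 0.59) was 1.31-fold, with limma adjusted p = 0.00993, and the call was lost without variance moderation (adjusted p = 0.0548). Nr1d2 (probe set 10417734) read 7.95, 7.89 and 7.92 in DMSO and 7.76, 7.59 and 7.64 in FR, with every FR array below every DMSO array. Its fall of 0.26 (SE 0.084, 95% interval -0.44 to -0.07) was 1.20-fold, with limma adjusted p = 0.0426. That call was lost without any one of DMSO replicates 1, 2 and 3 and FR replicates 2 and 3, where adjusted p lay between 0.0893 and 0.131, and with quantile normalization (0.103), cyclic loess (0.104) and no moderation (0.0553).

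Within each array the value of Nr1d1 minus that of Nr1d2 was 0.45, 0.70 and 0.45 in DMSO and 1.06, 1.35 and 1.12 in FR. The changes of the 2 genes thus differed by 0.64 (SE 0.12), and the groups did not overlap. The exact permutation p was 0.1, the smallest that 3 against 3 arrays can give, and 0.2 adjusted over the 6 pairs. With 1 array left out, quantile normalization or cyclic loess the difference lay between 0.56 and 0.73.

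The promoters of this pair are shown because their genes moved apart. Capitals in the Nr1d2 window mark AGGTCA, the core site of ROR and REV-ERB receptors, 77 bases before the start, which 16.3% of all windows contain. Windows of Per1, Clock, Arntl and Nfil3 contain it as well, and of these genes only Nfil3 was called, as higher. The Nr1d1 window had 0 matches to any of the motifs searched, which says only that these letters are not in it.
Nr1d1, chr11:98775378-98775627, minus strand: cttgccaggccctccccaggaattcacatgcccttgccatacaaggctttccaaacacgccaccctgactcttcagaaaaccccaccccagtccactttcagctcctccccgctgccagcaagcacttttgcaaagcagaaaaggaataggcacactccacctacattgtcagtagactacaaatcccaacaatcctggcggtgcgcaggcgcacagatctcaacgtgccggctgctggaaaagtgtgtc
Nr1d2, chr14:18239107-18239356, minus strand: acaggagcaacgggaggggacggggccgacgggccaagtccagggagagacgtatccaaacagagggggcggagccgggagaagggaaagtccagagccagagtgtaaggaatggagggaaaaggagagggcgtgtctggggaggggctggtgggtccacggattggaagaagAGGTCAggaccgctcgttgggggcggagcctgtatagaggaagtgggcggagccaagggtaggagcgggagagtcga

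**Figure D2:**
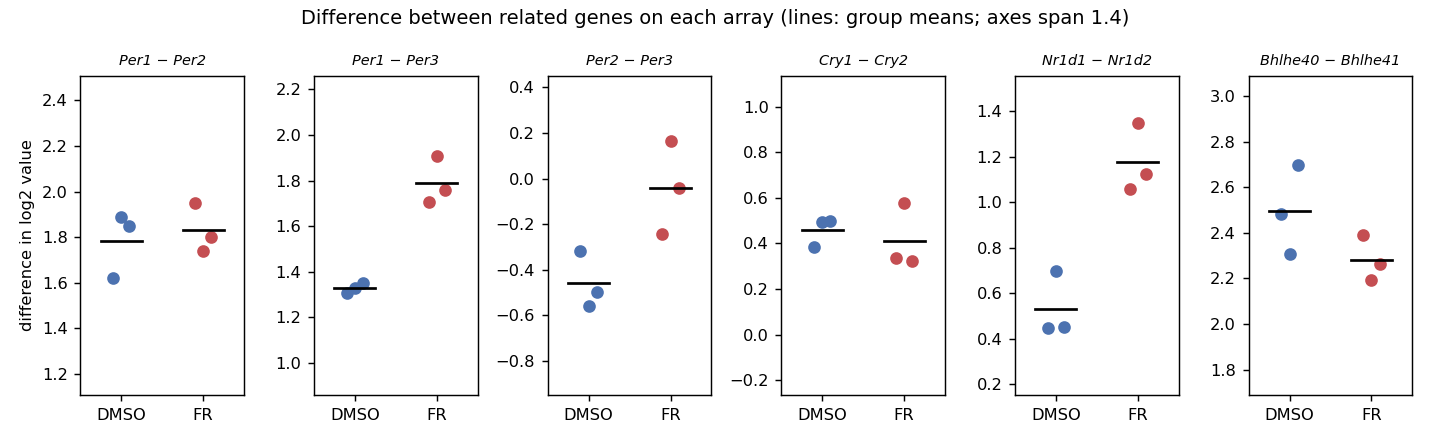
Difference in log2 value between related genes on each array (DMSO blue, FR red; black lines are group means; axes span the same range), where only the shift between groups is meaningful. Nr1d1 minus Nr1d2 moves from a mean of 0.53 in DMSO to 1.18 in FR and Per1 minus Per3 from 1.33 to 1.79, whereas Cry1 minus Cry2 goes from 0.46 to 0.41.

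The Per genes encode the repressors that bind CRY proteins and set the period of the loop. Per3 (probe set 10518781), the member least needed for rhythm in mice, read 6.02, 6.15 and 6.08 in DMSO and 5.87, 5.77 and 5.78 in FR. All FR arrays lay below all DMSO arrays, and the fall of 0.28 (SE 0.082, 95% interval -0.46 to -0.10) was 1.21-fold, with limma adjusted p = 0.029. The call was lost without any one of DMSO replicates 1, 2 and 3 and FR replicates 2 and 3, where adjusted p lay between 0.0551 and 0.113. Per1 (probe set 10377439), which carries cyclic AMP response elements in its regulatory region, read 7.33, 7.48 and 7.43 in DMSO and 7.58, 7.67 and 7.54 in FR. The FR arrays were all above the DMSO arrays, by 0.057 at the nearest, but the change of 0.18 (SE 0.085, 95% interval -0.0035 to 0.37) did not pass (limma adjusted p = 0.131). It passed with quantile normalization (0.26, adjusted p = 0.0409) and cyclic loess (0.24, adjusted p = 0.0436).

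Per2 (probe set 10356601), needed for a sustained rhythm, read 5.70, 5.59 and 5.58 in DMSO and 5.63, 5.93 and 5.73 in FR. The groups overlapped, the DMSO mean of 5.63 lay under the dim level of 5.65, and the change of 0.14 (95% interval -0.07 to 0.35) did not pass (limma adjusted p = 0.308). The olfactory receptor genes that set the dim level had a median change of 0.14. The change of Per3 differed from that of Per1 by 0.46 (SE 0.061) and from that of Per2 by 0.42 (SE 0.14), without overlap between groups in either case. Both gave an exact permutation p of 0.1 (adjusted over the 6 pairs, 0.2). The changes of Per1 and Per2 differed by 0.045 (SE 0.10, exact permutation p = 0.7).

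The promoters of Per1 and Per3 are shown because the 2 genes have different motifs. In the first of 2 Per1 windows capitals mark TGACG, the short core of the cyclic AMP response element, 246 bases before the start, CACGTG 166 bases before it, and AGGTCA on the opposite strand (read as TGACCT) 137 bases before it. The other Per1 window has TGACG once, 132 bases before its start. Among the members, TGACG is also in the windows of Cry1 and Cry2, and CACGTG in that of Cry1, and neither gene passed. TGACG occurs in 20.8% of all windows, and the full element TGACGTCA, which contains it on both strands, in 1.79% and in none of the 11 windows of the 8 members that the table lists. In the Per3 window capitals mark TTATGTAA, a D-box letter sequence of the kind bound by DBP, TEF, HLF and NFIL3, 205 and 158 bases before the start. It occurs in 0.938% of all windows, and among the members only in that of Per3. The other D-box spelling searched, TTACGTAA (0.119% of windows), and the SMAD box GTCTAGAC (0.213%) were found in 0 of the member windows.
Per1, chr11:69098699-69098948, plus strand: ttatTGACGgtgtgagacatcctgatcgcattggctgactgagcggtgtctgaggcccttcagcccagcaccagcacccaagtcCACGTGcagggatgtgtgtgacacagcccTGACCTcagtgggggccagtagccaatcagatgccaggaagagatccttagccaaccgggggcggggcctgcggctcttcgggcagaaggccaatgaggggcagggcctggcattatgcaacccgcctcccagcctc
Per3, chr4:151044666-151044915, minus strand: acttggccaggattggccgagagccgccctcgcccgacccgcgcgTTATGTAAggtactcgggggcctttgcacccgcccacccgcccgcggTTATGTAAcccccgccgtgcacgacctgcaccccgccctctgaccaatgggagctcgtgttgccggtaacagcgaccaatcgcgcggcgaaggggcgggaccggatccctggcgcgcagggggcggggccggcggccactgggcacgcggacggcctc

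Dbp encodes a PAR bZIP activator that binds D-boxes and is a direct output of CLOCK and BMAL1. It read 6.54, 6.83 and 6.64 in DMSO and 6.33, 6.50 and 6.18 in FR (probe set 10553092). The groups did not overlap, though 0.045 separated the nearest arrays. The fall of 0.34 (SE 0.11, 95% interval -0.58 to -0.10) was 1.26-fold, with limma adjusted p = 0.0405. The call was lost without DMSO replicate 2, DMSO replicate 3, FR replicate 1 or FR replicate 3 (adjusted p 0.0749 to 0.151), with array weights (0.0502) and without moderation (0.156).

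The other factors that act on D-boxes did not move as a set. Nfil3, which encodes a repressor that competes with DBP, rose from 10.39, 10.41 and 10.37 to 10.88, 10.91 and 10.76, a change of 0.46 (SE 0.082, limma adjusted p = 0.00185). It passed under each of the 16 alternatives. Hlf and Tef encode activators of the Dbp family. Hlf changed by -0.29 (limma adjusted p = 0.0555, 95% interval -0.51 to -0.07), passing in 3 of 16 alternatives, and Tef by -0.08 (adjusted p = 0.526).

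The cryptochrome genes and Clock gave no detectable change. Cry1, whose product is the strongest repressor of the loop, read 6.84, 6.93 and 6.80 in DMSO and 6.92, 6.95 and 6.72 in FR (probe set 10371400), a change of 0.0098 (limma adjusted p = 0.947, 95% interval -0.19 to 0.21). Cry2, its paralogue, read 6.46, 6.43 and 6.30 against 6.59, 6.38 and 6.40 (probe set 10485170), a change of 0.057 (adjusted p = 0.67, 95% interval -0.15 to 0.26). The 2 changes differed by -0.047 (SE 0.09, exact permutation p = 0.8). Clock, which encodes the histone acetyltransferase partner of BMAL1, read 8.29, 8.20 and 8.27 in DMSO and 8.30, 7.99 and 8.30 in FR (probe set 10530733), a change of -0.05 (limma adjusted p = 0.715, 95% interval -0.28 to 0.17). Its lowest value was that of FR replicate 2, and the sign turned without that array (0.05), with quantile normalization (0.014) and with cyclic loess (0.028); that of Cry1 turned with arrays centred on their medians (-0.046). The intervals leave out changes larger than 0.28 on the log2 scale for these 3 genes, but do not show that they were equal in the 2 groups.

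Of 57 further genes of the clock and its inputs, 51 were measured, and 6 rose and 11 fell (33.3% against 27.9% of all genes), with a median change of -0.091 beside 0.053 for all genes. The count was 11 without DMSO replicate 3, where 4188 of all genes were called in place of 5559. Other scalings split the calls differently: 8 higher and 8 lower with quantile normalization, 8 and 9 with cyclic loess, and 5 and 15 with arrays centred on their medians. Among all genes the split was 2671 higher and 2888 lower, and 1880 and 3447 with centring.

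Among partners and loop genes, 2 of 8 rose and 1 fell (37.5% called, against 27.9% of all genes). Rorb, which encodes a ROR receptor that activates Arntl through the sites REV-ERB proteins occupy, changed most. It read 5.65, 5.39 and 5.77 in DMSO and 8.25, 7.74 and 7.85 in FR, a rise of 2.34 (SE 0.14, 5.07-fold as measured, limma adjusted p = 7.27e-07) that ranked 41 by size among all genes. Its DMSO mean of 5.60 lay under the dim level. The widely expressed paralogue Rora changed by 0.11 (adjusted p = 0.384, 95% interval -0.09 to 0.31). Arntl, the gene on which both receptor families act, read 7.01, 7.03 and 7.06 in DMSO and 6.96, 6.96 and 6.69 in FR. Its groups did not overlap, but the change of -0.16 (SE 0.096, limma adjusted p = 0.231) did not pass. Arntl2, a paralogue of Arntl, rose by 0.33 (adjusted p = 0.0405), which was no longer called after removal of DMSO replicate 2, DMSO replicate 3, FR replicate 1 or FR replicate 3 (0.0955 to 0.148), with centring (0.0826), with array weights (0.0554) and without moderation (0.151). Ciart, a repressor of CLOCK and BMAL1, changed by -0.33 (adjusted p = 0.0716, passing in 5 of 15 alternatives), and by -0.23 on its other probe set. Its FR mean of 5.38 lay under the dim level, as did the mean of 4.61 over all arrays on the other probe set. Npas2 was not analysed here.

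**Figure D3:**
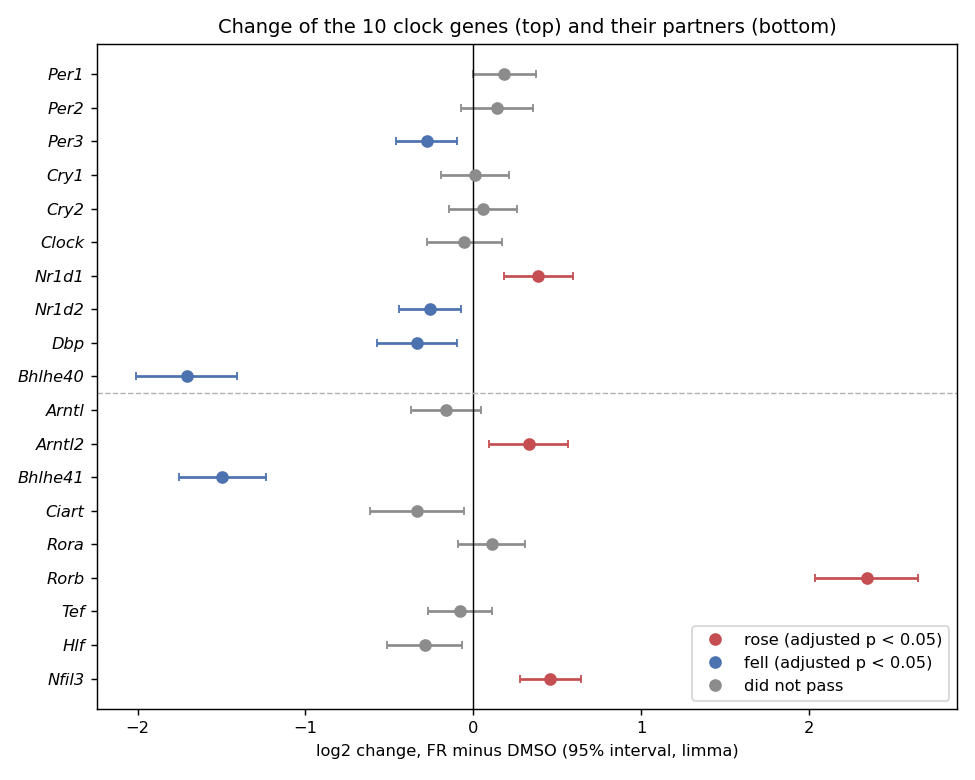
Log2 change (FR minus DMSO) with its 95% interval from limma for the 10 clock genes above the dashed line and 9 partner genes below it. Of the partner genes Rorb was not fixed by name and was named because it passed. Red rose, blue fell and grey did not pass at an adjusted p of 0.05. Bhlhe40 at -1.71, Bhlhe41 at -1.49 and Rorb at 2.34 stand apart from the others, which lie between -0.34 and 0.46.

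Of 12 kinases, ligases and deubiquitinases that act on clock proteins, 2 fell, 0 rose and 10 did not pass (16.7% called, against 27.9% of all genes, a difference that was not tested). Fbxw11, a subunit of the ligase that degrades PER proteins, fell by 0.36 (limma adjusted p = 0.0265), and Fbxl21, a ligase subunit for CRY proteins, by 0.34 (0.0381) with both group means under the dim level. The Fbxw11 call was lost without DMSO replicate 2, DMSO replicate 3 or FR replicate 3 (adjusted p 0.0672 to 0.0812), with quantile normalization (0.0579) and without moderation (0.124). That of Fbxl21 was lost without each array in turn except FR replicate 2 (0.0618 to 0.133) and without moderation (0.147). The other 10, among them the kinases of PER proteins Csnk1d (0.11, adjusted p = 0.34) and Csnk1e (-0.17, adjusted p = 0.15), did not pass.

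Of 10 cofactors, 1 rose and 2 fell (30% called, against 27.9% of all genes). Ppargc1a, a coactivator of ROR receptors that links the clock to energy metabolism, rose by 1.36 (limma adjusted p = 8.46e-06) from a DMSO mean of 4.94, under the dim level, and by 0.73 on its other probe set. Nampt, the enzyme that recycles NAD for the deacetylase SIRT1 and an E-box output of the clock, fell from 8.57, 8.24 and 8.39 to 7.79, 7.22 and 7.35 (1.93-fold lower, adjusted p = 0.000617, and 0.0513 without moderation). Nono, an RNA-binding partner of PER proteins, fell by 0.28 (adjusted p = 0.0436), a call lost without any one array except FR replicate 1 (0.0771 to 0.119), with quantile normalization (0.0755), with cyclic loess (0.0905) and without moderation (0.0981).

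Of 4 clock-controlled genes, 2 fell (50% called, against 27.9% of all genes). Wee1, the mitotic kinase gene driven by E-boxes, went from 7.15, 7.12 and 7.05 to 6.76, 6.68 and 6.39, a fall of 0.50 (limma adjusted p = 0.00514, and 0.0659 without moderation). Tsc22d3, which encodes the glucocorticoid-induced leucine zipper, fell by 0.37 (adjusted p = 0.00912).

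The genes through which cyclic AMP and growth signals reach the clock gave 2 rises and 4 falls among 14 measured after 2 days, and 8 did not pass (42.9% called, against 27.9% of all genes). Crem, which encodes cyclic AMP-responsive repressors including ICER, rose by 1.08 (limma adjusted p = 3.03e-05), and Dusp1, a phosphatase for MAP kinases, by 0.38 (adjusted p = 0.0106). The Dusp1 call was lost without DMSO replicate 1 (0.0507) and without moderation (0.0564). The orphan receptor genes Nr4a3, Nr4a1 and Nr4a2 fell by 1.20 (adjusted p = 1.6e-06), 0.46 (0.00186) and 0.34 (0.0385). The FR mean of Nr4a3, 5.55, lay under the dim level, so the size of its fall is uncertain. Crtc3, a coactivator of CREB, fell by 0.25 (adjusted p = 0.0483). The Nr4a2 call was lost without DMSO replicate 2, DMSO replicate 3, FR replicate 1 or FR replicate 3 (0.0614 to 0.140), with quantile normalization (0.0915), with cyclic loess (0.078) and without moderation (0.149). That of Crtc3 was lost without any one array (0.0555 to 0.156), with quantile normalization (0.117), with cyclic loess (0.136), with array weights (0.0541) and without moderation (0.0729). Sik1, a kinase gene that CREB induces and that limits resetting of the clock, changed by 0.26 (adjusted p = 0.0567), and Fos by 0.17 (adjusted p = 0.306).

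**Figure D4:**
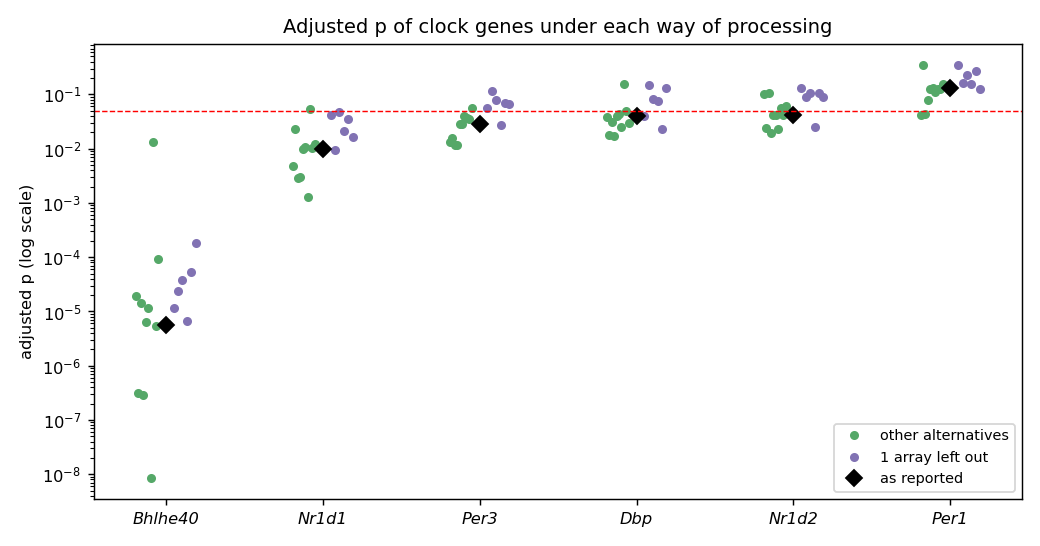
Adjusted p (log axis) of 6 clock genes as reported (black diamonds), with 1 array left out (purple) and under the other alternatives (green); the dashed red line is 0.05. Bhlhe40 stays under the line at each point, at most 0.013, while points of Nr1d1, Per3, Dbp, Nr1d2 and Per1 lie on both sides of it and reach 0.0548, 0.113, 0.156, 0.131 and 0.354.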

How the data were processed

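Total RNA was labelled as biotinylated cRNA and hybridised to 6 one-colour Affymetrix arrays, per the labels' protocols. For 35556 probe sets the deposited table gives log2 values, which the authors made with RMA in the oligo package, per the submitters' processing notes. Versions and the genome build are not given in the sources used here. As usually run, RMA normalizes between arrays, so a shift common to all genes is largely removed. Array medians of the deposited values ran from 5.98 to 6.00 in DMSO and from 6.01 to 6.07 in FR. The olfactory receptor genes had a median change of 0.14, and its part in other changes was not tested. Arrays were grouped by title. Of the probe sets, 21789 had 1 gene symbol in the platform annotation, 1621 several and 12146 none; the brightest probe set over all 6 arrays was taken per gene, which gave 19938 genes.

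The model was fitted in R 4.3.3 by limma 3.58.1 (functions lmFit and eBayes, group as the only term, two-sided, Benjamini-Hochberg adjustment over all genes). The fit was tested on simulated data. Pairs of related genes were compared by an exact permutation test of their difference per array. Alternatives were quantile normalization, centring on array medians, cyclic loess, dim genes left out, the mean of probe sets, every probe set tested, trended and robust moderation, no moderation, array weights, a block for the replicate number, and the removal of each array in turn. Named were the 10 members, 9 partner genes fixed by name, further listed genes that passed and, chosen after their values were seen, Csnk1d, Csnk1e, Sik1 and Fos. The members and lists were chosen with earlier results of these data known. Slide and scan batches were not analysed here. The number of arrays limits the precision.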

Additional observations from a re-analysis of the deposited data

How the results depend on the processing

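Of the 10 clock genes 5 passed, and apart from Bhlhe40 and Nr1d1 these calls lay close to the threshold (adjusted p 0.029 to 0.0426). Without moderation 2 passed, with 17 further clock genes going to 8 and all genes called from 5559 to 3364. Leaving out 1 array gave 2 to 4 of the 10 genes and 11 to 16 of the further genes, while all genes called ran from 4033 to 5914. Same-numbered arrays of the 2 groups did not deviate together (correlations -0.073, 0.047 and -0.034), so the numbers were not taken as pairs. With the replicate number as a block in limma 3 of the 10 passed, beside 4977 of all genes. With that block Per3 (-0.28, adjusted p = 0.0571) and Nr1d2 (-0.26, adjusted p = 0.0609) missed the threshold. Among the further genes, Fbxl21 (adjusted p = 0.0514), Nono (0.0571) and Crtc3 (0.0597) missed it as well.

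Per1 passed with quantile normalization (0.26) and cyclic loess (0.24), and Nr1d2 missed with these (-0.19 and -0.19) and without moderation (-0.26). Without moderation Nr1d1 (0.39) and Dbp (-0.34) missed as well, and with array weights Dbp (-0.32). The sign turned for Cry1 with centring (-0.046) and for Clock with quantile normalization (0.014) and cyclic loess (0.028). With 1 array left out the log2 change lay from -0.31 to -0.24 for Per3, -0.31 to -0.22 for Nr1d2, -0.42 to -0.26 for Dbp, -0.034 to 0.081 for Cry1, -0.0088 to 0.095 for Cry2 and -0.11 to 0.049 for Clock, and the difference between the changes of Per1 and Per2 from -0.037 to 0.096. The cause of these losses was not tested. The calls of Bhlhe40, Bhlhe41, Rorb, Nfil3, Crem, Ppargc1a, Nr4a1, Nr4a3 and Tsc22d3 kept their direction and passed under every alternative run on them.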
